A study of Mus musculus with 8 samples.

Results

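The genes described here are 9 members of the insulin-like growth factor 1 (IGF1) system in the adult mouse visual cortex. They are the ligand Igf1, its receptor Igf1r, the binding proteins Igfbp3, Igfbp4, Igfbp5, Igfbp6 and Igfbp7, and the receptor substrates Irs1 and Irs2. They were taken by symbol from a table of 24883 gene rows, each symbol matched 1 row, and all 9 passed the filter on low values, a mean of 0.5 FPKM or more. FPKM counts fragments per kilobase of transcript and scales them by a factor for each library, so levels of different genes can be set side by side. How that factor was set is not given in the sources used here.

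IGF1 is a secreted growth factor that binds a receptor tyrosine kinase. The activated receptor phosphorylates insulin receptor substrates, which recruit phosphatidylinositol 3-kinase and pass the signal to AKT and mTOR, while the adaptors SHC and GRB2 lead to the Ras and MAP kinase cascade. Most extracellular IGF is held by binding proteins, which limit or prolong its access to the receptor and are cut by dedicated proteases. In rodent visual cortex IGF1 is known for its part in experience-dependent plasticity and in the maturation of inhibition, and microglia and some interneurons are among its sources in the brain. Igf1 has also been reported as a target of the miR-29 family.

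All groups were C57BL/6J mice that received a locked nucleic acid (LNA) oligonucleotide, a short synthetic strand with chemically locked sugars, by injection into the cortex on postnatal day 122. Visual cortex was harvested on postnatal day 129, which is 7 days later. The LNA was complementary to miR-29a in 4 samples, called anti-miR-29a, and had a scrambled sequence in 4 control samples, called scrambled. No uninjected tissue enters the comparison, so every sample carries the injection itself. Nothing in the labels ties a sample to its own animal, so p-values measure only how far these samples spread, and that spread may be technical.

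Each library listed 12538 to 12769 rows at 1 FPKM or more. The spacing of low values put the depths of the other libraries at 0.983 to 1.145 times that of scrambled replicate 1, if values were scaled to depth. Markers of excitatory cortical neurons, such as Slc17a7 and Neurod6, summed to 1390.0 to 1492.8 FPKM in anti-miR-29a libraries and 1449.0 to 1511.7 FPKM in scrambled libraries. Striatal markers summed to 56.5 to 61.7 FPKM in anti-miR-29a and 49.5 to 61.9 FPKM in scrambled libraries, and thalamic markers to 16.2 to 19.4 FPKM in anti-miR-29a and 15.7 to 20.6 FPKM in scrambled libraries. All 5 choroid plexus markers lay under the filter, with sums of 0.275 to 0.911 FPKM in anti-miR-29a and 0.203 to 2.26 FPKM in scrambled libraries. Xist, the RNA of the inactive X chromosome, was at 0.109 FPKM in anti-miR-29a replicate 1 and 0.0162 FPKM in scrambled replicate 1, against 7.59 to 25.3 FPKM in the other anti-miR-29a libraries and 17.4 to 33.1 FPKM in the other scrambled libraries. The Y-linked gene Ddx3y was detected in all 8, at 2.47 to 6.44 FPKM in anti-miR-29a and 1.6 to 5.51 FPKM in scrambled libraries, so the 6 libraries with Xist hold transcripts of both sexes. Whether animals were pooled is not stated in the labels. Xist, Ddx3y and the comparisons that use them were picked after their values were seen.

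The sequences that link these genes to the treatment are the miR-29 seed and its matches in the members' 3′ untranslated regions (UTRs). The mature miR-29 microRNAs of the mouse, taken from RefSeq (GRCm38.p6), share the same seed, bases 2 to 8 from the 5′ end, shown in capitals.
mmu-miR-29a-3p: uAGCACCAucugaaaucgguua
mmu-miR-29b-3p: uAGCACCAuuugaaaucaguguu
mmu-miR-29c-3p: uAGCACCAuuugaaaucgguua
The table lists the genes that encode these microRNAs at 0 in each of the 8 libraries, and it holds no direct readout of miR-29a itself.

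A match to the seed, TGGTGCT on the transcript strand, was present in the longest annotated 3′ UTR of 3 of the 9 members, Igf1, Irs1 and Igfbp4. Among 13113 tested genes with a searched 3′ UTR, 15.8% held at least 1 match, and 3.36% held an 8mer, a match followed by A. The members' 3′ UTRs were long, with a median of 2813 nt against 1230 nt for all searched genes, and a longer UTR gives more room for a match. The 5 sites are shown 5′ to 3′ as 30 bases of transcript, with the match in capitals (GENCODE M21, mm10).
Igf1, site 1, chromosome 10, 87931671 to 87931677, plus strand: ttgttgttgttttttagtacaaTGGTGCTa
Igf1, site 2, chromosome 10, 87934305 to 87934311, plus strand: tgtttggccagctacgccaatgTGGTGCTa
Irs1, site 1, chromosome 1, 82233374 to 82233380, minus strand: ttggtttatcatctgaagatggTGGTGCTa
Igfbp4, site 1, chromosome 11, 99053223 to 99053229, plus strand: gggcgtgtgtgcatgtgtcaccTGGTGCTc
Igfbp4, site 2, chromosome 11, 99053233 to 99053239, plus strand: gcatgtgtcacctggtgctcacTGGTGCTc
Both Igf1 sites and the Irs1 site were 8mers, while neither Igfbp4 site was. The Igfbp4 sites lie close enough together that the window of the second contains the first. The longest 3′ UTRs of Igf1r, Igfbp3, Igfbp5, Igfbp6, Igfbp7 and Irs2 held 0 matches, which says only that these letters are not in those UTRs.

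None of the 9 members passed when anti-miR-29a libraries were set against scrambled ones, with p adjusted over all 13912 tested rows (limma on log2(FPKM + 0.1), Benjamini-Hochberg, threshold 0.05). By that rule 0.0144% of tested rows passed, 0.00719% in each direction, namely Bdh1 on the higher side (log2 difference 0.74) and Snora23 on the lower (-4.84). The members nearest to the threshold were Igf1r, lower in all 4 anti-miR-29a libraries, and Irs1, higher in all 4. They were also the 2 members with an unadjusted p under 0.05 and the 2 in which the groups did not overlap. Over all tested rows 10.7% had an unadjusted p under 0.05, made up of 7.54% on the higher and 3.18% on the lower side. Groups without overlap made up 6.31% of tested rows, 4.02% higher and 2.29% lower. Of the 9 members 8 had a positive log2 difference, beside 56.6% of all tested rows, and the median was 0.13 for the members and 0.026 for all tested rows.

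**Figure D1:**
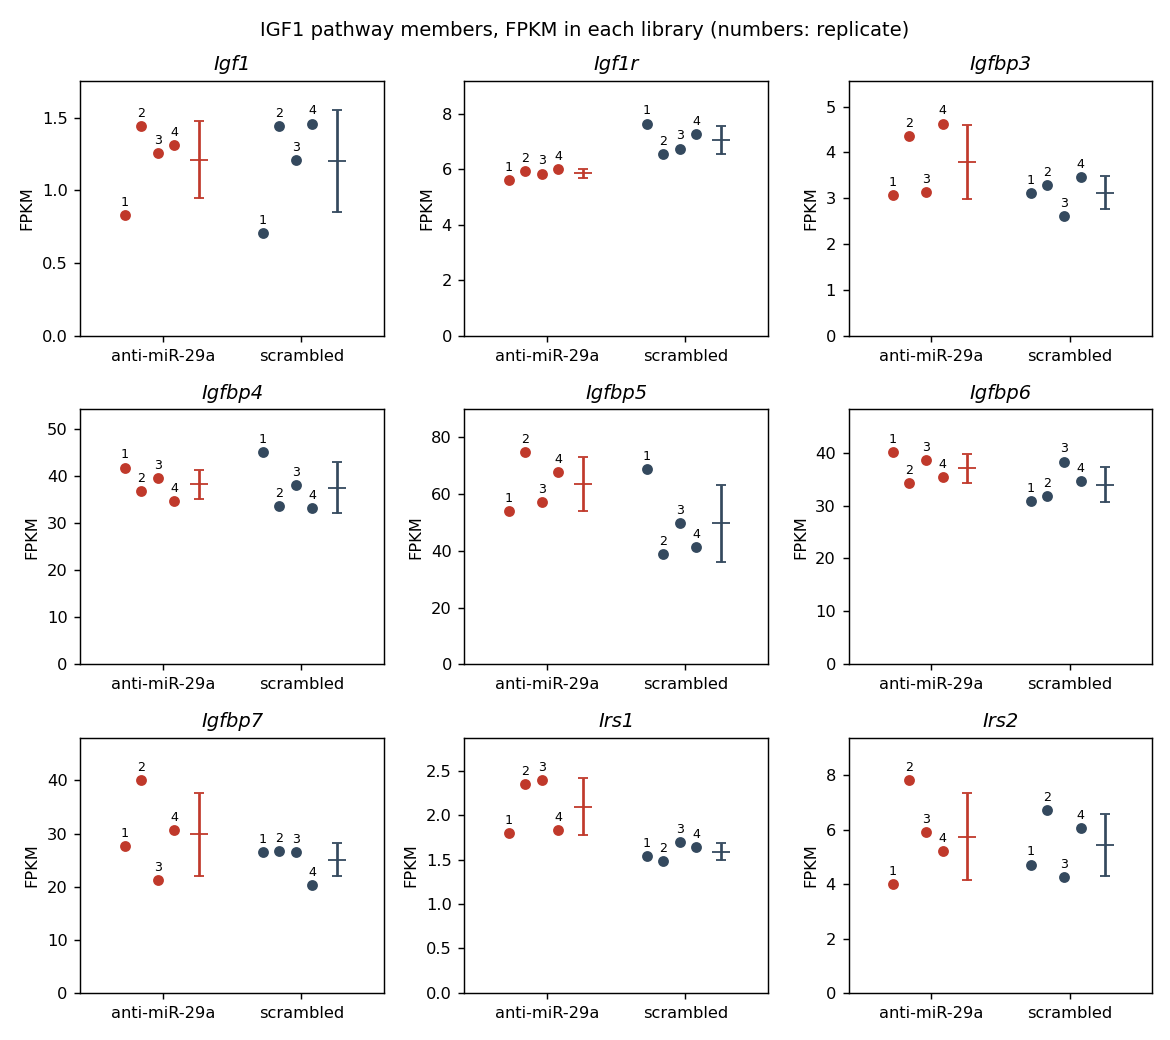
FPKM of each member (vertical axis, from 0) in the 4 anti-miR-29a and the 4 scrambled libraries, with replicate numbers at the points and the mean ± SD at the right of each group. The groups are apart for Igf1r, at 5.63 to 6.01 FPKM in anti-miR-29a against 6.56 to 7.65 FPKM in scrambled, and for Irs1, at 1.8 to 2.39 FPKM in anti-miR-29a against 1.48 to 1.7 FPKM in scrambled, and overlap for the other members.

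Igf1, the ligand, is a gene on chromosome 10 (87858265 to 87937042, plus strand, mm10 as for all positions here). It read 0.831, 1.44, 1.26 and 1.31 FPKM in anti-miR-29a replicates 1 to 4, and 0.708, 1.44, 1.21 and 1.46 FPKM in scrambled replicates 1 to 4. The ranges lay on top of each other, and in both groups replicate 1 was the low library. The means were 1.21 ± 0.264 FPKM in anti-miR-29a and 1.2 ± 0.349 FPKM in scrambled libraries (SD, n = 4 each). The log2 difference was 0.03 with a 95% interval of -0.58 to 0.64 (limma, adjusted p = 0.981), so that a fold of 0.668 to 1.56 lies within the error. These libraries do not tell a change of Igf1 within that interval from none. The interval is not a limit of detection, and a larger change could also have missed the threshold. The binding protein gene Igfbp2 did so at 0.77 log2 units (limma, adjusted p = 0.273). The sign of the difference depended on single libraries: it was -0.19 without scrambled replicate 1, -0.058 without anti-miR-29a replicate 2 and -0.016 without anti-miR-29a replicate 4, and 0.18 without anti-miR-29a replicate 1.

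Igf1 and Xist were low in the same libraries. The 2 libraries with almost no Xist, replicate 1 of each group, were the 2 lowest in Igf1, at 0.831 FPKM in anti-miR-29a and 0.708 FPKM in scrambled, whereas the 6 libraries with Xist lay between 1.21 and 1.46 FPKM. By likeness over the libraries, the tested rows most like Igf1 in all 8 were Pja1 (Pearson r = 0.98) and Xist (r = 0.96), both on the X chromosome, out of 8295 rows with a mean of at least 5 FPKM. Pja1, a ubiquitin ligase gene, stood at 55.8 and 53.2 FPKM in anti-miR-29a and scrambled replicate 1, and at 58.5 to 60.4 FPKM in the other 6 libraries. With so many rows and 8 libraries, values of r this high are found for other members as well. The r with Xist rests mainly on the 2 libraries with almost no Xist. Of the libraries with Xist, anti-miR-29a replicate 4 had the least, 7.59 FPKM, with Igf1 at 1.31 FPKM. Scrambled replicate 3 had more Xist, 17.4 FPKM, and less Igf1, 1.21 FPKM. The Y-linked genes Eif2s3y, Kdm5d and Uty were highest in the 2 libraries with almost no Xist, replicate 1 of each group. Eif2s3y stood at 13.0 FPKM in anti-miR-29a and 12.4 FPKM in scrambled replicate 1, against 4.93 to 11.5 FPKM in the other 6, and anti-miR-29a replicate 4 came next for all 3 genes. Ddx3y had 6.44 FPKM in anti-miR-29a replicate 1 and 5.51 FPKM in scrambled replicate 1, with anti-miR-29a replicate 4 between them at 5.7 FPKM. Among the 6 libraries with Xist the Igf1 difference between treatments was -0.031 log2 units (limma, adjusted p = 0.973), and with Y-linked expression as a covariate it was 0.12 (adjusted p = 0.885), both chosen after seeing the data. The part of sex in the level of Igf1 was not tested. Igfbp4 was the other member whose 2 libraries without Xist stood outside the rest, on the high side. It read 41.9 FPKM in anti-miR-29a and 45.2 FPKM in scrambled replicate 1, against 33.3 to 39.6 FPKM in the 6 with Xist. How many of all tested rows split in this way was not counted. The split is therefore not shown to be particular to Igf1 and Igfbp4.

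**Figure D2:**
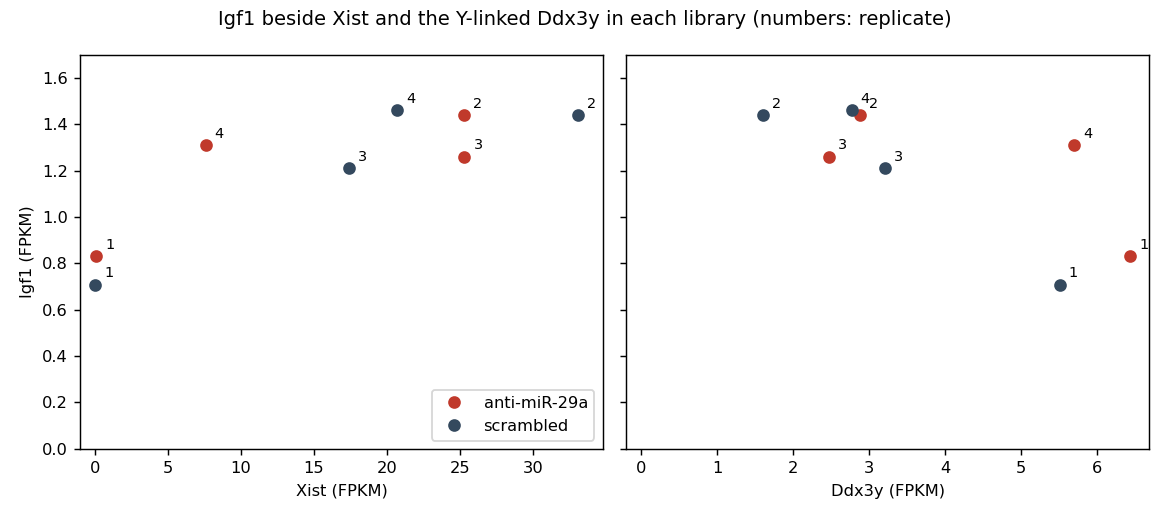
Igf1 (vertical axis, FPKM from 0) beside Xist (left) and the Y-linked Ddx3y (right, both FPKM) in each library, numbered by replicate. The libraries with Xist at 0.109 and 0.0162 FPKM, replicate 1 of anti-miR-29a and of scrambled, are those with Igf1 at 0.831 and 0.708 FPKM.

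Microglia are a known source of Igf1. The 8 microglial markers summed to 104.1 to 148.4 FPKM in anti-miR-29a and 115.7 to 167.5 FPKM in scrambled libraries, with 4 of 8 markers higher and a median log2 difference of -0.03. Scrambled replicate 1 had the highest microglial sum of the 8 libraries and the lowest Igf1. In whole tissue, fewer cells of a type and less RNA per cell cannot be told apart.

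Igf1r encodes the IGF1 receptor and lies on chromosome 7 (67952827 to 68233668, plus strand). It read 5.63, 5.94, 5.85 and 6.01 FPKM in anti-miR-29a replicates 1 to 4 and 7.65, 6.56, 6.75 and 7.26 FPKM in scrambled replicates 1 to 4. Every anti-miR-29a library lay below every scrambled one, and the anti-miR-29a libraries were close together, with an SD of 0.168 FPKM around 5.86, against 0.492 around 7.06 in scrambled libraries (n = 4 each). Igf1r differed by -0.26 log2 units with a standard error of 0.084 and a 95% interval of -0.45 to -0.08, a fold of 0.834 (limma, adjusted p = 0.313), and ranked 466 of 13912 by p. An exact two-sided permutation test gave p = 0.0286, the smallest that 70 relabellings allow. Among the 9 members tested in this way Irs1 had the same value. Groups without overlap always give this value, so it only repeats the lack of overlap. Such groups made up 6.31% of all tested rows.

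The difference of Igf1r stayed between -0.30 and -0.20 over 20 alternatives and missed the threshold in each, with adjusted p from 0.256 to 0.654. The unadjusted p was above 0.05 in 1 of them, the fit to the 6 libraries with Xist. Its longest transcript has 11409 nt, and long transcripts were lower in general: the median log2 difference was -0.060 for tested rows with a longest transcript of at least 6000 nt and 0.122 for those of 200 to 1000 nt. Once each library's trend over transcript length and GC content was taken out, Igf1r stood at -0.20. The row most like Igf1r was Klf13, a zinc-finger transcription factor gene (r = 0.995 over 8 libraries), at 20.0 to 21.0 FPKM in anti-miR-29a and 22.3 to 24.3 FPKM in scrambled libraries, followed by Adcy1, an adenylyl cyclase gene (r = 0.98).

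The insulin receptor gene Insr, whose product can pair with the IGF1 receptor, showed the same order of groups at a smaller distance. It read 4.5, 4.49, 4.67 and 4.63 FPKM in anti-miR-29a replicates 1 to 4 and 5.06, 4.97, 5.26 and 5.22 FPKM in scrambled replicates 1 to 4, without overlap, a log2 difference of -0.16 (limma, adjusted p = 0.514), or -0.092 with the length and GC trend removed. Igf2r, which clears IGF2 from the cell surface, had a log2 difference of -0.17 (adjusted p = 0.613) with overlapping groups, at 3.15 to 3.49 FPKM in anti-miR-29a and 3.48 to 4.18 FPKM in scrambled libraries.

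Irs1 encodes the insulin receptor substrate 1, a docking protein below both receptors, on chromosome 1 (82233101 to 82291416, minus strand). There it overlaps the opposite-strand gene Gm9747, which the counting cannot separate without strand. Gm9747 has no row of its own, so its part in the Irs1 level was not tested. Irs1 read 1.8, 2.35, 2.39 and 1.83 FPKM in anti-miR-29a replicates 1 to 4, and 1.54, 1.48, 1.7 and 1.64 FPKM in scrambled replicates 1 to 4. Each anti-miR-29a value exceeded each scrambled value, with replicates 1 and 4 of anti-miR-29a closest to the scrambled range. The means were 2.09 ± 0.321 and 1.59 ± 0.0978 FPKM in anti-miR-29a and scrambled libraries (SD, n = 4 each). Irs1 differed by 0.37 log2 units with a standard error of 0.160 and a 95% interval of 0.01 to 0.72, a fold of 1.29 (limma, adjusted p = 0.454), and ranked 1381 of 13912 by p. It kept its sign over 19 alternatives, at 0.25 to 0.43 with adjusted p from 0.417 to 0.65. The unadjusted p was above 0.05 under 12 of these alternatives, among them quantile normalization and leaving out anti-miR-29a replicate 2 or 3 or any single scrambled library. Of the 2 members with an 8mer site, Irs1 with 1 had groups that did not overlap and Igf1 with 2 had groups that did. Igf1 stood at 0.03 log2 units, and so did Igfbp4, whose sites are not 8mers. Ppih, a cyclophilin gene, and Tpi1, a gene of glycolysis, were the rows most like Irs1 (r = 0.97 each).

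Irs2, the substrate that shares this role, lies on chromosome 8 (10984681 to 11008458, minus strand) and was the more abundant of the pair. It read 4.0, 7.81, 5.92 and 5.23 FPKM in anti-miR-29a replicates 1 to 4 and 4.72, 6.73, 4.26 and 6.05 FPKM in scrambled replicates 1 to 4. The highest and the lowest library both came from the anti-miR-29a group. Irs2 differed by 0.06 log2 units with a 95% interval of -0.40 to 0.52 (limma, adjusted p = 0.936), and its sign turned without anti-miR-29a replicate 2 (-0.10) or scrambled replicate 3 (-0.048). The opposite-strand transcript 9530052E02Rik overlaps Irs2 and the library kit did not mark strand, but its row read 0.193 to 0.569 FPKM in anti-miR-29a and up to 0.754 FPKM in scrambled libraries, where scrambled replicates 2 and 3 were listed at 0. Likeness to Irs2 was highest for Prr12 (r = 0.990).

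**Figure D3:**
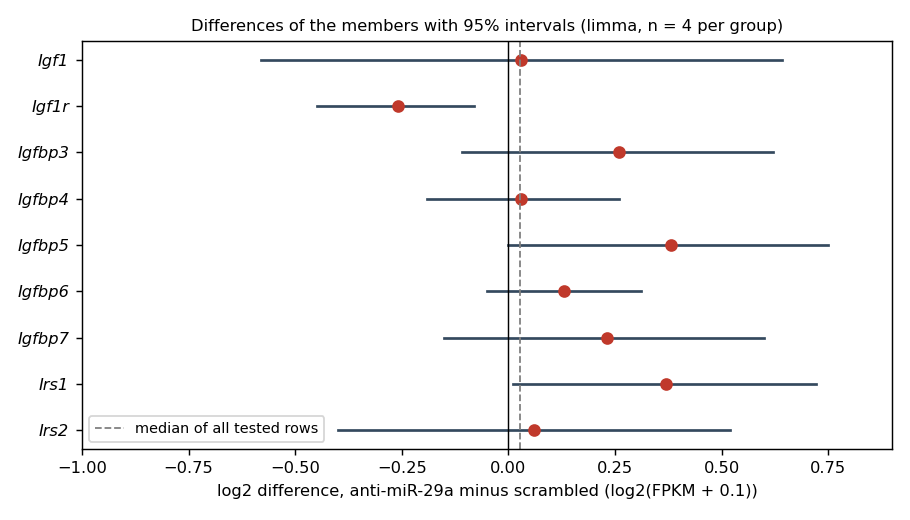
Log2 difference of each member, anti-miR-29a minus scrambled, on the log2(FPKM + 0.1) scale (horizontal axis), with 95% intervals from limma (n = 4 per group). The dashed line marks the median of all tested rows, 0.026. The intervals of Igf1r (-0.45 to -0.08) and Irs1 (0.01 to 0.72) do not include 0, before any adjustment for the number of genes.

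The binding proteins were the abundant members. Averaged over the 8 libraries, Igfbp5 stood at 56.6 ± 13.1 FPKM, Igfbp4 at 37.9 ± 4.17, Igfbp6 at 35.5 ± 3.28 and Igfbp7 at 27.5 ± 6.08 (SD over 8 libraries). Igfbp5 exceeded Igfbp4 in all 8 libraries and Igfbp6 exceeded Igfbp7 in 7, while Igfbp4 exceeded Igfbp6 in 5 of 8 with overlapping ranges, so the order of that pair is not resolved. Further down stood Igf1r at 6.46 ± 0.724 and Irs2 at 5.59 ± 1.29 FPKM, whose ranges overlapped. Igfbp3 followed at 3.46 ± 0.684 FPKM, below Irs2 in all 8 libraries, then Irs1 at 1.84 ± 0.348, and Igf1 was last at 1.21 ± 0.287 FPKM. By this measure 92.5% of tested rows were lower than Igfbp5 and 11.3% lower than Igf1. The 5 binding proteins together summed to 159.8 to 190.5 FPKM in anti-miR-29a libraries and 133.1 to 174.6 FPKM in scrambled libraries. Igfbp5 made up 32.4% to 39.3% of that sum in anti-miR-29a and 29% to 39.4% in scrambled libraries, and Igfbp3 made up 1.84% to 2.68% in anti-miR-29a and 1.68% to 2.6% in scrambled libraries.

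Igfbp5 binds IGF and the extracellular matrix and is encoded on chromosome 1 (72857932 to 72874884, minus strand). It read 54.1, 74.8, 57.3 and 67.6 FPKM in anti-miR-29a replicates 1 to 4 and 68.8, 39.0, 49.8 and 41.3 FPKM in scrambled replicates 1 to 4. Scrambled replicate 1 stood among the anti-miR-29a libraries, and the other scrambled libraries lay below all of them. The means were 63.5 ± 9.53 and 49.7 ± 13.5 FPKM in anti-miR-29a and scrambled libraries (SD, n = 4 each). Igfbp5 differed by 0.38 log2 units with a standard error of 0.169 and a fold of 1.3, with a 95% interval of 0.999 to 1.69 (limma, adjusted p = 0.466). With 1 library left out the difference ran from 0.27 without scrambled replicate 2 to 0.54 without scrambled replicate 1, and it was 0.29 without anti-miR-29a replicate 2. Among the 6 libraries with Xist, which also leaves out anti-miR-29a replicate 1, it was 0.62, standard error 0.119 (adjusted p = 0.186). The rows most like Igfbp5 were Cd9, a tetraspanin gene (r = 0.98), and Aqp4, the water channel gene of astrocyte endfeet (r = 0.97). Aqp4 read 17.4 to 24.3 FPKM in anti-miR-29a and 14.5 to 22.1 FPKM in scrambled libraries, with scrambled replicate 1 again the highest of its group.

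Igfbp7, which is made by blood vessels and binds IGF weakly, lies on chromosome 5 (77349240 to 77408041, minus strand). It read 27.6, 40.0, 21.3 and 30.6 FPKM in anti-miR-29a replicates 1 to 4, and 26.6, 26.7, 26.5 and 20.4 FPKM in scrambled replicates 1 to 4. Replicate 2 of the anti-miR-29a group was the highest and scrambled replicate 4 the lowest. The log2 difference was 0.23 with a 95% interval of -0.15 to 0.60 (limma, adjusted p = 0.671), and it was 0.072 without anti-miR-29a replicate 2 and 0.38 without anti-miR-29a replicate 3. Its transcript overlaps exons of Polr2b on the other strand, which the counting cannot separate without strand. Polr2b, the gene of a subunit of RNA polymerase II, read 12.5 to 14.1 FPKM in anti-miR-29a and 12 to 15.0 FPKM in scrambled libraries. Slc32a1 (r = 0.97), the vesicular transporter gene of inhibitory neurons, and Ctnnd1 (r = 0.96), a catenin gene, were the rows most like Igfbp7.

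Igfbp3, the main IGF carrier of blood plasma, lies on chromosome 11 (7206086 to 7213923, minus strand). It read 3.07, 4.35, 3.13 and 4.63 FPKM in anti-miR-29a replicates 1 to 4 and 3.12, 3.3, 2.62 and 3.46 FPKM in scrambled replicates 1 to 4. Replicates 2 and 4 of the anti-miR-29a group lay above all other libraries, while replicates 1 and 3 lay within the scrambled range. Igfbp3 differed by 0.26 log2 units with a 95% interval of -0.11 to 0.62 (limma, adjusted p = 0.616), and by 0.16 with the length and GC trend removed or without anti-miR-29a replicate 4. Nfkbia, the gene of an inhibitor of NF-kappa-B, and Btbd17 were most like it (r = 0.98 each).

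Igfbp4, an inhibitory binding protein, also lies on chromosome 11 (99041244 to 99054392, plus strand). It read 41.9, 37.0, 39.6 and 34.7 FPKM in anti-miR-29a replicates 1 to 4 and 45.2, 33.8, 38.2 and 33.3 FPKM in scrambled replicates 1 to 4, so the ranges coincided. The log2 difference was 0.03 with a 95% interval of -0.19 to 0.26 (limma, adjusted p = 0.93). Its sign turned without anti-miR-29a replicate 1 (-0.012), scrambled replicate 2 (-0.016) or scrambled replicate 4 (-0.023), and with the length and GC trend removed (-0.024). Prr18 and Spsb1 were the rows most like Igfbp4, at r = 0.91 each.

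Igfbp6, which prefers IGF2 over IGF1, lies on chromosome 15 (102144362 to 102149511, plus strand). It read 40.1, 34.3, 38.5 and 35.3 FPKM in anti-miR-29a replicates 1 to 4 and 30.9, 31.8, 38.3 and 34.6 FPKM in scrambled replicates 1 to 4. Anti-miR-29a replicates 1 and 3 lay above all scrambled libraries and the others did not. Igfbp6 differed by 0.13 log2 units with a 95% interval of -0.05 to 0.31 (limma, adjusted p = 0.597), by 0.021 with the length and GC trend removed and by 0.048 in the 6 libraries with Xist. Its longest transcript has 1112 nt, in a length class (1000 to 3000 nt) whose median difference was 0.071. Memo1 (r = 0.987) and Hat1 (r = 0.97), a histone acetyltransferase gene, were most like Igfbp6.

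Markers of vascular and connective tissue cells were set beside the binding proteins library by library. Fibroblast markers, 8 of whose 9 genes were tested, were higher in 7 of 8 with a median log2 difference of 0.47, and their summed level was 26.7 to 50.6 FPKM in anti-miR-29a and 21.5 to 36.2 FPKM in scrambled libraries. Lum lay under the filter, and no marker of this list was at 0 in all libraries. Mural cell markers were higher in 6 of 8 (median 0.12), with sums of 52.9 to 78.3 FPKM in anti-miR-29a and 55.7 to 68.2 FPKM in scrambled libraries. Endothelial markers were higher in 5 of 8 (median 0.09), with sums of 92.7 to 102.1 FPKM in anti-miR-29a and 74.9 to 101.3 FPKM in scrambled libraries. Anti-miR-29a replicates 2 and 4, the highest 2 libraries for Igfbp3 and Igfbp7, were also the highest 2 for fibroblast markers, at a median of 1.02 and 0.84 log2 units above the mean of the scrambled libraries, and for mural cell markers, at 0.31 and 0.39. Anti-miR-29a replicate 3, the lowest of its group for Igfbp7, stood at -0.26 for fibroblasts and -0.24 for mural cells. Scrambled replicate 1, the high scrambled library for Igfbp5, was the highest of its group for markers of fibroblasts, mural cells, endothelial cells, microglia, macrophages, astrocytes and oligodendrocytes. In that library Igfbp3 and Igfbp7, at 3.12 and 26.6 FPKM, lay within the range of the other scrambled libraries. Scrambled replicate 4 had the lowest Igfbp7 of its group, 20.4 FPKM, and the highest Igfbp3, 3.46 FPKM. Its fibroblast and mural cell medians were 0.35 and -0.08. Igfbp4 shared the order of the markers only in part. It was highest in scrambled replicate 1, at 45.2 FPKM, but stood at 37.0 and 34.7 FPKM in anti-miR-29a replicates 2 and 4. Igfbp6 was lowest in scrambled replicate 1, at 30.9 FPKM. Its highest value was 40.1 FPKM in anti-miR-29a replicate 1, where the fibroblast median was 0.33. Next came 38.5 FPKM in anti-miR-29a replicate 3 and 38.3 FPKM in scrambled replicate 3, where the fibroblast medians were -0.26 and -0.50. The part of these cells in the levels of the binding proteins was not tested.

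Macrophage markers were higher in 4 of 5 tested genes (median 0.48), with sums of 34.4 to 64.9 FPKM in anti-miR-29a and 25.8 to 41.1 FPKM in scrambled libraries, and Cd163 and Mrc1 lay under the filter. Astrocyte markers were higher in 3 of 6 (median 0.13), with sums of 816.1 to 1170.1 FPKM in anti-miR-29a and 810.4 to 983.5 FPKM in scrambled libraries. Oligodendrocyte markers were higher in 0 of 6 (median -0.15), with sums of 895.4 to 1192.8 FPKM in anti-miR-29a and 803.4 to 1644.1 FPKM in scrambled libraries. Excitatory neuron markers had a median of -0.05, with 1 of 5 higher. Interneuron markers had a median of 0.04, with 3 of 6 higher and sums of 683.8 to 778.1 FPKM in anti-miR-29a and 656.3 to 709.6 FPKM in scrambled libraries. None of the markers passed after adjustment over all tested rows (limma).

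**Figure D4:**
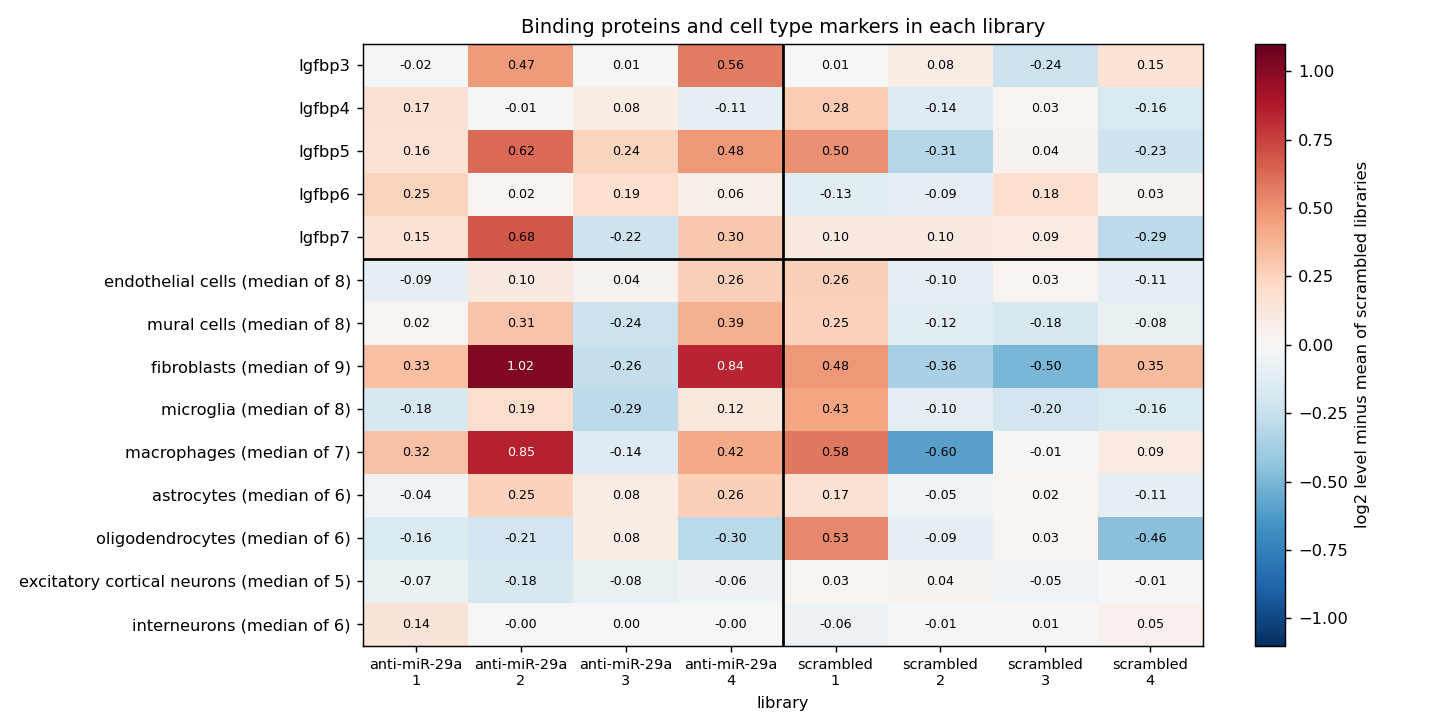
Log2 level of each binding protein and median log2 level of each marker list (rows) in each library (columns), minus the mean of the scrambled libraries, with the value in each cell. Anti-miR-29a replicates 2 and 4 have high values of Igfbp3, Igfbp5 and Igfbp7 and of fibroblast markers (1.02 and 0.84). Scrambled replicate 1 is high for Igfbp5 and for most glial and vascular lists, but its Igfbp3 and Igfbp7 lie within the range of the other scrambled libraries.

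The other genes of the pathway were followed through 6 lists with 67 genes, of which 58 were tested and 0 passed in either direction (limma, adjusted p of at least 0.266). They were split evenly, 29 with a positive and 29 with a negative difference, and the median was within 0.01 log2 units of 0. An unadjusted p under 0.05 was found for 6 genes on the positive and 4 on the negative side, 10 of 58, beside 10.7% of all tested rows. In 2 genes all 4 anti-miR-29a libraries were above the scrambled ones and in 6 genes below, beside 4.02% and 2.29% of all tested rows.

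Among the other ligands and binding proteins, Igf2 and Igfbp2 had the largest differences of all 58 genes. Igfbp2, a binding protein of the extracellular fluid, read 23.3, 49.7, 24.4 and 32.4 FPKM in anti-miR-29a replicates 1 to 4, against 17.8, 14.7, 17.7 and 23.1 FPKM in scrambled replicates 1 to 4. Its groups did not overlap, and the log2 difference was 0.77, standard error 0.225 (limma, adjusted p = 0.273). Igf2, a growth factor that in the adult brain comes from meninges, vessels and choroid plexus, read 25.2, 27.3, 14.1 and 27.5 FPKM in anti-miR-29a libraries and 16.1, 9.62, 11.8 and 17.8 FPKM in scrambled libraries. Its log2 difference was 0.75, standard error 0.243 (adjusted p = 0.314), with anti-miR-29a replicate 3 inside the scrambled range. That library was also the low one of its group for fibroblast markers (-0.26), and anti-miR-29a replicates 2 and 4, the highest for both genes, were the highest for fibroblast markers. Choroid plexus markers, all under the filter, had medians of -0.24, 0.52, -0.13 and -0.06 log2 units in anti-miR-29a replicates 1 to 4, and 0.15, -0.13, 0.51 and -0.56 in scrambled replicates 1 to 4. The part of these cells in Igf2 and Igfbp2 was not tested. Ins2, Insrr, Igfbp1, Igfals and Igfbpl1 lay under the filter.

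Of the proteases that cut binding proteins and their inhibitors, 5 of 8 genes were tested and 4 had a positive difference. Htra1, a secreted serine protease gene, read 58.7, 80.2, 66.4 and 79.3 FPKM in anti-miR-29a replicates 1 to 4 and 58.6, 52.0, 60.6 and 55.7 FPKM in scrambled replicates 1 to 4, a log2 difference of 0.32 (limma, adjusted p = 0.311), or 0.21 with the length and GC trend removed. Ctsd, Adam9 and Adam12 stood at 0.16, -0.10 and 0.17 log2 units, values that moved with single libraries. Ctsd was at 0.028 without anti-miR-29a replicate 2 and 0.054 with the trend removed. Adam9 was at -0.17 without anti-miR-29a replicate 3. Adam12 ran from 0.061 without scrambled replicate 2 to 0.42 without anti-miR-29a replicate 3, among the sets of 7 libraries in which it passed the filter. Pappa, the gene of the protease that releases IGF from IGFBP4, lay under the filter, as did Pappa2 and Stc2.

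Among adaptors and phosphatases at the receptor, 7 of 14 tested genes had a positive and 7 a negative difference. Socs2, an inhibitor of growth hormone signalling, read 4.47, 5.86, 7.15 and 4.83 FPKM in anti-miR-29a replicates 1 to 4 and 3.98, 3.99, 2.7 and 3.67 FPKM in scrambled replicates 1 to 4. All 4 anti-miR-29a libraries were higher, with a log2 difference of 0.62 (limma, adjusted p = 0.266). The Ras exchange factor genes Sos2 and Sos1 and the neuronal adaptor gene Shc3 were lower in all 4 anti-miR-29a libraries, with log2 differences of -0.30, -0.20 and -0.35 (adjusted p = 0.267, 0.477 and 0.316). For Shc3 the groups all but touched: the highest anti-miR-29a and the lowest scrambled library both rounded to 12.1 FPKM. Sos1 stood at -0.088 with the length and GC trend removed.

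In the PI3K, AKT and mTOR list 10 of 22 tested genes had a positive and 12 a negative difference, from -0.35 to 0.17. Akt2, a kinase of the insulin response, stood at 0.17 log2 units (limma, adjusted p = 0.443), while Pdpk1, the kinase gene upstream of AKT, and Eif4ebp1, a translation repressor gene below mTOR, stood at -0.18 and -0.35. Eif4ebp1 was at -0.20 in the 6 libraries with Xist. The FoxO factors include proteins that AKT keeps out of the nucleus and that in turn drive Irs2. The FoxO genes had differences of -0.05 to 0.16, with Foxo6 and Foxo4 at 0.16 and 0.15, and Foxo1 at 0.03. Without scrambled replicate 2 Foxo6 was at 0.050 and Foxo4 at 0.071, and without anti-miR-29a replicate 3 they were at 0.069 and 0.088. Foxo4 was at 0.24 without scrambled replicate 1. In the Ras and MAP kinase list 3 of 9 genes had a positive difference, with Map2k2 at 0.22 and Hras at 0.15, and Braf at -0.18 (adjusted p = 0.49, 0.444 and 0.369). With the length and GC trend removed Map2k2 stood at 0.13, Hras at 0.068 and Braf at -0.073, and Map2k2 was also at 0.13 without anti-miR-29a replicate 2. The groups did not overlap for Braf, which was lower in all 4 anti-miR-29a libraries.

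**Figure D5:**
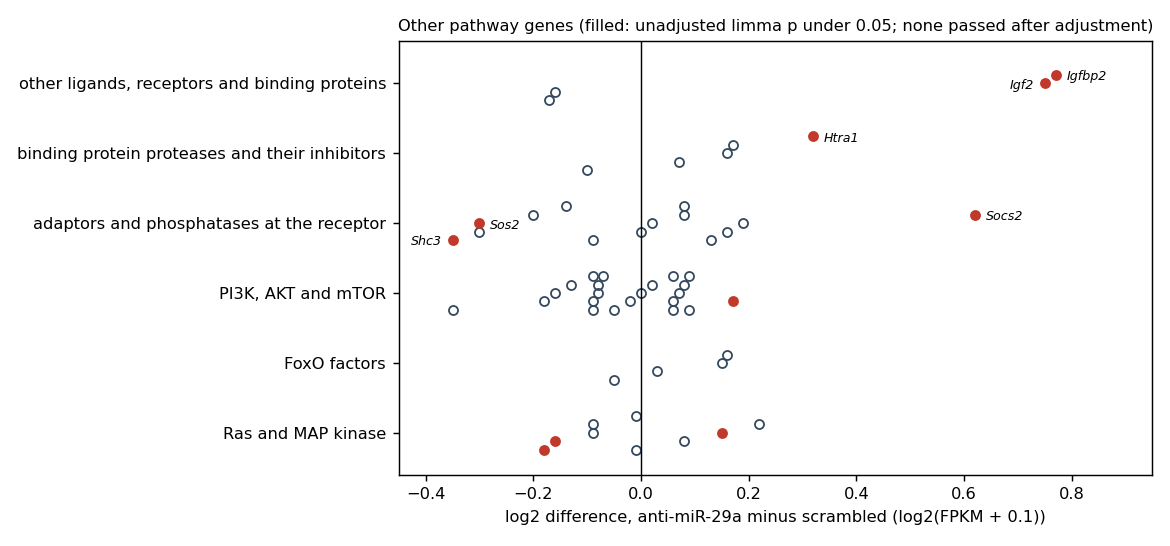
Log2 difference, anti-miR-29a minus scrambled, on the log2(FPKM + 0.1) scale (horizontal axis) of the 58 tested pathway genes, by list (rows, with points spread vertically for legibility). Filled points have an unadjusted limma p under 0.05. Names are given for the filled points farthest from 0. Igfbp2 (0.77), Igf2 (0.75) and Socs2 (0.62) lie farthest to the right.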

How the data were processed

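RNA of 8 visual cortex samples was sequenced. The authors deposited FPKM per gene and library. The submitters' processing notes name mm10 as the build and the tools Bowtie, Cuffnorm and CASAVA 1.8.2. How these were ordered, which annotation and scaling were used, and the read counts: not given in the sources used here. Low values were used to estimate relative depth, on the premise that values were scaled to depth. Of their ratios to scrambled replicate 1, 26.8% to 35.9% fell on ratios of small integers (tolerance 0.02 log2 units), and 5.98% to 7.17% did so by the median over shifted positions.

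Rows with a mean of at least 0.5 FPKM (13912) were fitted as log2(FPKM + 0.1) with limma 3.58.1 in R 4.3.3 (group term, variance trend, two-sided, Benjamini-Hochberg). This scale understates changes of low genes. The fit was tested on simulated data, where it recovered 46.3% of rows shifted by 0.5 log2 units and 74.1% of those shifted by 1. Noise was drawn independently for each row and library, so these shares need not hold for the real libraries.

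Members, lists and tests were chosen with earlier results of these data known. The text names all members, up to 4 genes of smallest p per pathway list, and for each member the 2 rows of highest Pearson r. Other genes were chosen after their values were seen, and some genes the rule names are not reported here. UTRs and positions came from GENCODE M21, which matched 99.2% of tested rows. The alternatives are described at the end.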

Additional observations from a re-analysis of the deposited data

Results flagged for a closer look

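Within each group of 4, a library far from the other 3 was looked for by Dixon's test in 33 genes, the 9 members and the named pathway genes, or 66 groups in all, of which chance flags about 1 in 20. It marked 5 libraries. Igfbp7 stood at 20.4 FPKM in scrambled replicate 4, against 26.5 to 26.7 in the other scrambled libraries. Igf2 stood at 14.1 FPKM in anti-miR-29a replicate 3, against 25.2 to 27.5 in the other anti-miR-29a libraries. Adam9 was at 12.8 FPKM in anti-miR-29a replicate 3, where the others of that group had 10.6 to 10.8. Shc3 was at 11 FPKM in anti-miR-29a replicate 1, where the others had 12 to 12.1. Map2k2 was at 19.6 FPKM in scrambled replicate 2, where the others had 23.5 to 23.6.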

How the results depend on the processing

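No member and no pathway gene passed under any alternative run. The count of all genes past the threshold was 2, and it was 1 without a filter, 1 with a mean of at least 5 FPKM, 10 with robust empirical Bayes, 1 with the length and GC trend removed, and 1 to 4 with 1 library left out. With the replicate number as a block 0 genes passed in limma, where 1476 genes had an unadjusted p below 0.05. The numbers share no stated origin: deviations of same-numbered libraries correlated at -0.11 to 0.01, so the block is given here only. Signs turned for 5 of the named genes. Igf1 was at -0.001 with median centring and at -0.031 in the 6 libraries with Xist, and Igfbp4 at -0.024 with the trend removed. With 1 library left out, Igf1 ranged from -0.19 to 0.18, Igfbp4 from -0.023 to 0.12, Irs2 from -0.10 to 0.22, Foxo1 from -0.040 to 0.10 and Foxo3 from -0.19 to 0.086. Foxo1 was at -0.008 in the libraries with Xist and Foxo3 at 0.017 with the Y-linked covariate, 2 alternatives chosen after seeing the data. The cause was not tested. Igf1, Igfbp3 and Irs1 lay below a mean of 5 FPKM and have no value there. With an 8mer as the site, 2 members held a match in place of 3. The other alternatives were pseudocounts of 1 and 0.01, quantile normalization and sample weights. Read depth is unknown, and standard errors of the members, 0.080 for Igfbp6 to 0.274 for Igf1, set what 4 libraries a group can resolve.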
